A study of Mus musculus with 8 samples.

Results

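ERV1 is the family name that the repeat annotation gives to class I endogenous retroviruses, the relatives of gammaretroviruses such as murine leukemia virus. Every row of the count tables whose family field reads ERV1 was taken, which gave 149 subfamilies of 1153 transposable element subfamilies and 25215 rows in all. Of these, 30 are internal parts of a provirus (names ending in "-int") and 119 are long terminal repeats (LTRs) or other parts. A row sums all copies of a subfamily over the genome, so it has no single position, and the internal row and the LTR row of a provirus are not independent. No filter on counts was used to choose the members, and 103 of the 149 had enough counts to be tested.

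A provirus carries the viral genes between a pair of LTRs, and the LTR holds the promoter and the polyadenylation signal. Recombination between both LTRs removes the internal part and leaves a solo LTR, so LTR rows pool intact proviruses with many solo copies. In mouse embryonic stem cells (mESCs), Krüppel-associated box zinc finger proteins recognise retroviral sequence and bring in TRIM28, which recruits the histone H3 lysine 9 (H3K9) methyltransferase SETDB1. G9a and its partner GLP methylate the same residue, mainly to the dimethyl state, and UNC0642 inhibits the catalytic activity of both.

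Polyadenylated RNA was sequenced from 1 mESC line, #33-6, in which Setdb1 can be deleted with 4-hydroxytamoxifen (4-OHT). All 4 conditions carried this conditional allele and were grown in the same low-serum medium with LIF on gelatin, with 2 biological replicates each, and no vehicle control is named. WT mESCs were untreated, UNC0642-treated mESCs received 2 µM of the inhibitor for 3 days, and Setdb1 KO mESCs received 800 nM 4-OHT for 5 days. UNC0642-treated Setdb1 KO mESCs are labelled as 800 nM 4-OHT for 2 days followed by 2 µM UNC0642 for 3 days, whereas the general protocol gives 5 days of 4-OHT for deleting Setdb1. The sources thus differ on how long 4-OHT was present in that condition, which bears on every comparison of both KO conditions.

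The libraries held 11702590 to 26807807 counts. Setdb1 was at 169 and 127 CPM (counts scaled to library size) in WT mESCs and 130 and 86.3 with UNC0642, against 47.3 and 51.0 in the KO and 61.1 and 34.1 with both treatments. Both KO conditions lay below the other 4 libraries without overlap, by a log2 fold change of -1.59 (SE 0.44) and -1.64 (SE 0.44) against WT. These whole-gene counts do not resolve single exons, and neither difference passed the threshold in edgeR's quasi-likelihood test (adjusted p = 0.181 and 0.0746), whereas both did with the replicate number as a block (adjusted p = 0.0164 and 0.00593). The 10 pluripotency markers checked, Pou5f1, Nanog and Sox2 among them, summed to 3975 to 5969 CPM in every library. Single markers could differ more than the sum, with Utf1 at 32.2 and 344 CPM in the WT libraries and Sox2 at 710 and 597 CPM. Fibroblast and trophectoderm markers (6 each) summed to at most 20.4 and 5.33 CPM, and 6 primitive endoderm markers to 10.6 to 58.9 CPM, highest in the UNC0642-treated mESCs.

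ERV1 transcripts took up 0.162% and 0.192% of all counts in the WT libraries, 0.197% and 0.278% after UNC0642, 1.47% and 1.44% after deletion of Setdb1, and 3.03% and 2.50% after both treatments. The means were 0.177% ± 0.0214, 0.238% ± 0.0574, 1.46% ± 0.024 and 2.76% ± 0.375 (SD, n = 2). Every library of a condition lay above every library of the condition before it, in this order. With 2 libraries against 2, an exact permutation test cannot go below p = 0.333, and no other test of the summed share was run. Within replicate numbers and after scaling, the summed ERV1 level in Setdb1 KO mESCs was 10.1-fold and 7.47-fold that in WT mESCs, and adding UNC0642 to the KO multiplied it by a further 2.24 and 1.86. UNC0642 alone gave 1.28-fold and 1.33-fold.

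These sums were carried by a few subfamily rows. The 2 rows of GLN, an endogenous retrovirus named after the glutamine tRNA that matches its primer binding site, made up 44.5% to 50.01% of ERV1 counts in WT, 31.1% to 31.3% with UNC0642, 54.1% to 64.2% in the KO and 72.4% to 73.0% with both treatments. Together with the 8 RLTR1 rows they made up most of the difference in summed level between the KO and WT. GLN made up 54.5% and 67.3% of it in replicates 1 and 2, and RLTR1 30.6% and 21.8%. Of the further difference when UNC0642 was added to the KO, the GLN rows alone made up 88.3% and 81.9%. Without GLN and RLTR1, the other 139 rows reached 4.40-fold and 3.02-fold the WT level in the KO, and UNC0642 multiplied this by 1.19 and 1.30. The number of rows needed to reach 90% of the ERV1 counts was 23 in WT mESCs, 25 with UNC0642, 8 in the KO and 4 with both treatments.

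**Figure D1:**
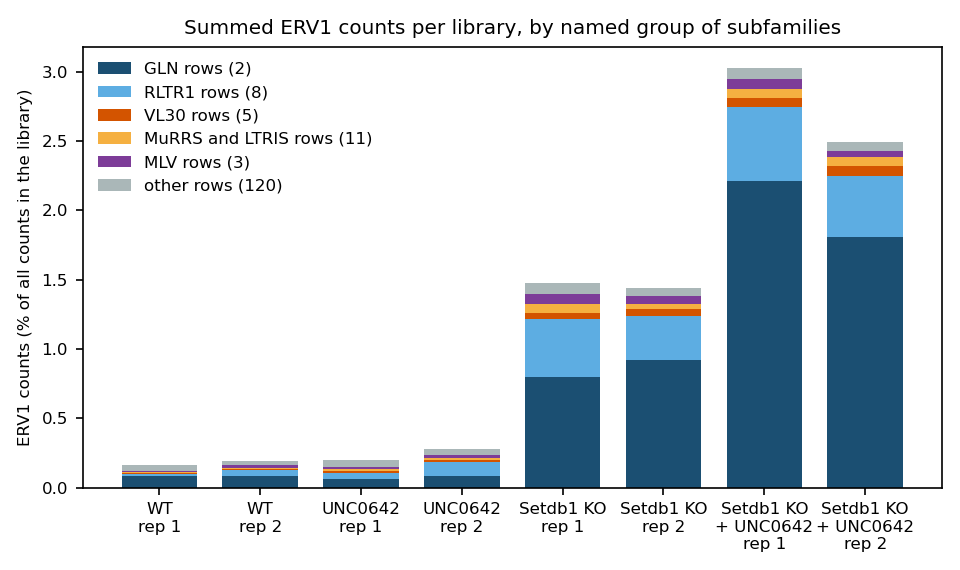
Summed ERV1 counts as a percentage of all counts (y axis, linear, from 0) in each of the 8 libraries (x axis), stacked by named group of subfamilies with the number of rows in brackets. The bars reach 0.162% to 0.278% without 4-OHT, 1.44% to 1.47% in the KO and 2.50% to 3.03% with both treatments, where the GLN rows are the tallest segment.

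The loss of SETDB1 was addressed by comparing Setdb1 KO with WT mESCs. A subfamily was called at an adjusted p under 0.05 in edgeR's quasi-likelihood test, adjusted over all 16245 genes and subfamilies tested, together with a fold change above 2. By this rule 11 of the 103 tested ERV1 subfamilies were called higher and 0 lower, and higher calls made up 1.11% of all genes and subfamilies and 4.22% of the 829 subfamilies outside ERV1, against 10.7% of tested ERV1. Lower calls were 0.00616% of all features. At an unadjusted p under 0.05, 42 were higher and 0 lower, beside 7.07% of all features and 25.5% of other subfamilies that were higher. Both KO libraries lay above both WT libraries for 71 ERV1 subfamilies (68.9%), beside 17.5% of all features and 50.7% of other subfamilies. With the replicate number as a block 25 were called higher (24.3%), beside 3.77% of all features and 19.4% of other subfamilies. The median log2 fold change was 1.29 over ERV1, 0.93 over the other subfamilies and -0.02 over all features. Values above 0 were seen for 98 of 103 ERV1 subfamilies, 787 of 829 other subfamilies and 7868 of all 16245 features. ERVK, another family of endogenous retroviruses, held 34 of the 35 calls outside ERV1. Of its 273 tested subfamilies 95 were called with the block, and its median was 1.35. The rise was thus not particular to ERV1. Leaving out WT replicate 1 or WT replicate 2 left 0 of the 11 calls, and leaving out Setdb1 KO replicate 1 left 3, while the fold changes moved less. Leaving out 1 library kept RLTR1B between 4.38 and 4.81 and MMERGLN-int between 3.38 and 3.48 on the log2 scale. Of the 11, RLTR1B-int (4.75 without WT replicate 2) and LTR45C (6.80 without WT replicate 1 and 11.93 without WT replicate 2) moved by more than 1.5-fold. Since the deposited counts are not divided by transcript length, levels are compared below within a subfamily and not between subfamilies.

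Both GLN rows were called. MMERGLN-int, the internal part, stood at 793 and 746 CPM in the WT libraries, 625 and 692 with UNC0642, 8620 and 8006 in Setdb1 KO, and 26180 and 16620 with both treatments. The 4 libraries without 4-OHT lay close together, those with UNC0642 slightly below WT, the KO libraries lay far above them, and the libraries with both treatments lay above the KO libraries. Against WT the log2 fold change was 3.43 (SE 0.59, adjusted p = 0.0307) in Setdb1 KO and 4.80 (SE 0.63, adjusted p = 0.0059) in UNC0642-treated Setdb1 KO mESCs, by edgeR's quasi-likelihood test. Its LTR, MMERGLN_LTR, was at 31.0 and 27.8, 28.2 and 32.7, 411 and 330, and 1078 and 813 CPM in the same order of conditions, with overlap only between WT and UNC0642. The LTR difference was 3.66 on the log2 scale in the KO (SE 0.45, adjusted p = 0.00997) and 5.01 with both treatments (SE 0.48, adjusted p = 0.00193). The internal row held 20.4 to 26.9 times as many counts as the LTR row in all 8 libraries, so the ratio between both parts moved by no more than 1.32-fold while the level moved by over an order of magnitude.

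The RLTR1 rows were led by RLTR1B-int and its LTR row RLTR1B. RLTR1B-int was at 130.5 and 323 CPM in WT, 446 and 774 with UNC0642, 4475 and 2564 in the KO, and 6080 and 3836 CPM with both treatments. The WT libraries differed from each other here by more than those of any other condition, and the KO libraries overlapped those with both treatments. RLTR1B was at 9.84 and 7.36, 17.8 and 11.3, 218 and 195, and 482 and 355 CPM, with no overlap between neighbouring conditions. In Setdb1 KO over WT mESCs the log2 fold change was 4.59 for RLTR1B (SE 0.48, adjusted p = 0.00566) and 3.95 for RLTR1B-int (SE 0.70, adjusted p = 0.0330). Unlike the GLN pair, the counts of the internal row divided by those of the LTR row ranged from 10.8 to 68.6, highest in replicate 2 of the conditions without 4-OHT. The other 6 RLTR1 rows were not called in either comparison with WT. With the replicate block RLTR1A2_MM (adjusted p = 0.0202) and RLTR1D (adjusted p = 0.0383) were called higher in Setdb1 KO, and both of them (adjusted p = 0.00438 and 0.00998) and RLTR1C (adjusted p = 0.0264) in UNC0642-treated Setdb1 KO mESCs, over WT.

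VL30 elements are retrotransposons that lack intact viral genes and whose RNA can be packaged by murine leukemia virus. All 5 VL30 rows lay higher in both KO libraries than in both WT libraries, and 3 were called. MMVL30-int was at 31.6 and 30.2 CPM in WT, 41.6 and 38.1 with UNC0642, 164.5 and 138.5 in Setdb1 KO, and 241 and 188 CPM with both treatments. Each condition lay above the one before it, and the log2 fold change in the KO was 2.29 (SE 0.38, adjusted p = 0.0282). RLTR6-int moved alike, at 28.9 and 28.8, 45.7 and 36.8, 229 and 257.5, and 318 and 352 CPM (3.07, SE 0.40, adjusted p = 0.0108 in the KO). Of the LTR rows, RLTR6B_Mm was called at 3.19 (SE 0.57, adjusted p = 0.0343), whereas RLTR6C_Mm at 3.28 (adjusted p = 0.0723) and RLTR6_Mm at 1.41 (adjusted p = 0.339) were not, although both passed with the replicate block (adjusted p = 0.0217 and 0.0306).

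The rows related to murine leukemia virus itself were higher in every Setdb1 KO library than in the WT libraries but did not pass the threshold in that comparison. MuLV-int was at 43.5 and 52.1 CPM in WT, 54.3 and 49.8 with UNC0642, 167 and 129 in Setdb1 KO, and 174 and 117 CPM with both treatments. The log2 fold changes over WT in the KO were 1.63 for MuLV-int (adjusted p = 0.112), 2.63 for RLTR4_MM-int (adjusted p = 0.0798) and 2.38 for RLTR4_Mm (adjusted p = 0.118) by edgeR's quasi-likelihood test, and all 3 passed with the replicate block (adjusted p = 0.0111, 0.0225 and 0.0217). RLTR4_MM-int showed the widest WT pair of the 3, at 38.1 and 94.9 CPM.

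MuRRS is a retrovirus-related repeat of the mouse whose LTRs belong to the LTRIS rows. Of these 11 rows, MuRRS4-int and LTRIS3 were called in Setdb1 KO over WT mESCs. MuRRS4-int was at 11.6 and 13.7 CPM in WT, 16.0 and 21.3 with UNC0642, 161 and 82.6 in the KO, and 274 and 197 CPM with both treatments, a log2 fold change of 3.27 in the KO (SE 0.48, adjusted p = 0.0158). LTRIS3 was at 0.783 and 1.41, 1.97 and 1.65, 12.02 and 9.19, and 12.1 and 12.6 CPM (3.24, SE 0.57, adjusted p = 0.0330 in the KO). Just short of the threshold stood LTRIS2 (2.75, adjusted p = 0.0532) and MuRRS-int (2.69, adjusted p = 0.0541). With the replicate block 6 of the 11 were called in the KO, LTRIS2 (adjusted p = 0.0129), MuRRS-int (adjusted p = 0.00512), LTRIS_Mm (adjusted p = 0.0315) and LTRIS_Mus (adjusted p = 0.00985) in addition. With both treatments the block added LTRIS4 (adjusted p = 0.0236), LTRIS_Mm (adjusted p = 0.00809) and LTRIS_Mus (adjusted p = 0.00502) to 4 calls. The Y-linked provirus MURVY gave 2.01 for its internal row (adjusted p = 0.333), on 11 to 143 counts a library. Summed by group and compared within replicate numbers 1 and 2, the KO level over WT was 10.97-fold and 10.8-fold for GLN, 6.44-fold and 6.43-fold for VL30, 28.7-fold and 7.94-fold for RLTR1, 8.47-fold and 3.66-fold for MuRRS and LTRIS, 8.02-fold and 3.11-fold for murine leukemia virus, and 2.57-fold and 2.04-fold for MURVY rows. GLN and VL30 differed little between replicates, and RLTR1 differed most.

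A pair of LTR rows with very low WT levels was also called. RLTR48C had 18 and 22 counts in WT, 30 and 29 with UNC0642, 746 and 304 in the KO, and 259 and 460 counts with both treatments, a log2 fold change of 4.39 in the KO (SE 0.65, adjusted p = 0.0164). LTR45C had 0 and 6 counts in WT, 3 and 11 with UNC0642, 733 and 338 in the KO, and 394 and 219 counts with both treatments. Its fitted value of 7.44 (SE 1.20, adjusted p = 0.0244) depends on how a WT library at 0 is handled and ranged from 6.77 to 11.93 over the alternatives. LTR45C was close to the detection floor of 3 counts without 4-OHT, RLTR48C was somewhat above it, and neither KO condition overlapped the other libraries in either row.

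**Figure D2:**
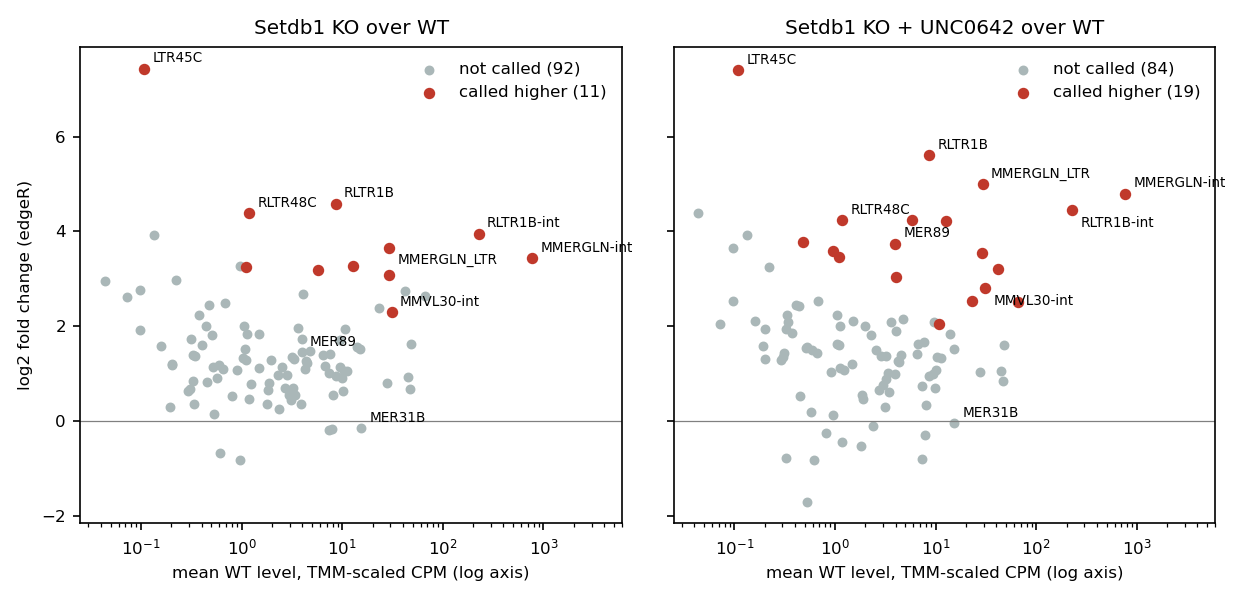
Each point is 1 of the 103 tested ERV1 subfamilies, with its mean TMM-scaled CPM in WT mESCs on the x axis (log) and its log2 fold change on the y axis, for Setdb1 KO over WT (left) and UNC0642-treated Setdb1 KO over WT (right). Red points are the 11 and 19 subfamilies called higher, grey points the other 92 and 84, and 0 were called lower in either panel.

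In the comparison of UNC0642-treated Setdb1 KO with WT mESCs, 19 of 103 ERV1 subfamilies were called higher (18.4%) and 0 lower, beside 3.6% of all features and 11.3% of other subfamilies called higher and 0.505% of all features called lower. Without overlap, 81 were higher (78.6%), beside 22.3% of all features and 60% of other subfamilies. They included all 11 subfamilies called in Setdb1 KO over WT mESCs and 8 more, namely MER89, LTRIS2, MuRRS-int, RLTR6C_Mm, MERV1_I-int, RLTR5_Mm, RLTR4_MM-int and RLTR4_Mm. The 8 had log2 fold changes over WT from 2.05 for MERV1_I-int (SE 0.42, adjusted p = 0.0283) to 3.77 for RLTR5_Mm (SE 0.83, adjusted p = 0.0377). With the replicate block 49 were called, beside 9.47% of all features and 36.4% of other subfamilies, and these included all 25 called with the block in Setdb1 KO over WT mESCs. The block also added RLTR23 (adjusted p = 0.00702), RLTR6_Mm (adjusted p = 0.00731), RLTR41 (adjusted p = 0.0108), MURVY-int (adjusted p = 0.0173) and MER90 (adjusted p = 0.0358), and in Setdb1 KO over WT mESCs MERV1_I-int (adjusted p = 0.00894). The median over ERV1 was 1.53, against 1.05 over the other subfamilies. Among the latter, ERVK had a median of 1.60, and 71 of its 273 subfamilies were called higher (165 with the block). Leaving out WT replicate 1 left 0 calls, and leaving out WT replicate 2 left 2. Besides LTR45C, leaving out 1 library moved by more than 1.5-fold RLTR1B-int (5.26 without WT replicate 2), MER89 (4.36 without it), RLTR4_MM-int (3.33 without it), RLTR4_Mm (1.61 without UNC0642-treated Setdb1 KO replicate 1) and RLTR5_Mm (2.69 without that library and 4.40 without replicate 2 of the same condition). Both comparisons share the WT libraries, so a longer list here is not by itself a difference between both KO conditions.

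RLTR1B was 5.61 above WT on the log2 scale (SE 0.50, adjusted p = 0.00176), and MuRRS4-int was 4.21 above it (SE 0.50, adjusted p = 0.0048). By contrast, RLTR48C at 4.24 and LTR45C at 7.41 were no further from WT than in the KO alone. MuLV-int at 1.61 did not pass in edgeR's quasi-likelihood test (adjusted p = 0.057) but did with the replicate block (adjusted p = 0.00627). The block was among 4 of 17 alternative settings in which MuLV-int passed. Of the 20 tested internal rows 8 were called, and of the 83 LTR rows 11. By name, 9 of 36 RLTR rows were called, 1 of 27 MER rows, 1 of 13 LTR rows and 8 of 27 rows with other names. By mean CPM over all 8 libraries, 0 of 23 members under 1 CPM and 3 of 44 at 1 to 10 CPM were called. At 10 to 100 CPM 8 of 28 were called, and above 100 CPM 8 of 8. This mean includes the libraries with both treatments, so a rise by itself moves a row into a higher band. RLTR1B, for example, was at a mean of 8.60 CPM in WT and 162 CPM over all 8 libraries. These counts therefore cannot show whether calls depended on level, and the splits by part and name were not tested apart from it.

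The effect of adding UNC0642 to the KO was asked directly by comparing both KO conditions. In edgeR's quasi-likelihood test 0 of 103 ERV1 subfamilies were called in either direction, with or without the replicate block, beside 0% of all features without the block and 0.123% with it (0.241% of other subfamilies). At an unadjusted p under 0.05, 4 were higher and 0 lower, namely MER89, MMERGLN_LTR, MMERGLN-int and RLTR1B, beside 2.79% of all features and 2.41% of other subfamilies. DESeq2 called 1 subfamily higher, MER89, beside 0.56% of all features and 0.121% of other subfamilies. With the replicate block, an alternative chosen after seeing the data, it called 5 higher (MER89, both GLN rows, RLTR1B and RLTR6B_Mm), beside 1.8% of all features and 2.77% of other subfamilies. Both libraries with UNC0642 lay above both KO libraries for 19 subfamilies (18.4%, beside 12.2% of all features and 12.1% of other subfamilies) and below them for 7, beside 13.3% of all features and 5.19% of other subfamilies. The median log2 fold change was 0.19 over ERV1, 0.10 over other subfamilies (0.23 over ERVK) and -0.01 over all features. Higher values within both replicate numbers were seen for 51 of 103 (49.5%), beside 27.8% of all features and 43.5% of other subfamilies.

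MER89, an LTR row, differed most among members with a mean of at least 1 CPM. It was at 2.61 and 5.27 CPM in WT, 20.9 and 14.96 with UNC0642, 15.4 and 6.38 in Setdb1 KO, and 45.8 and 60.9 CPM with both treatments. The libraries with UNC0642 alone overlapped the higher KO library, and the libraries with both treatments were above all others. The log2 fold change over the KO was 2.29 (SE 0.58, adjusted p = 0.640 by edgeR's quasi-likelihood test, adjusted p = 0.139 with the replicate block). Over all alternatives it ranged from 1.81 to 3.06, with adjusted p from 0.0004 to 1, and it was highest without Setdb1 KO replicate 1.

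Both GLN rows came next among those that had been called in the KO. Over Setdb1 KO mESCs the log2 fold change was 1.36 for MMERGLN-int (SE 0.55) and 1.35 for MMERGLN_LTR (SE 0.41), with adjusted p = 0.989 and 0.751 by edgeR's quasi-likelihood test and 0.126 and 0.0981 with the replicate block. Within replicate numbers the summed GLN level was 3.02-fold and 2.09-fold that in the KO. In cells that kept Setdb1, UNC0642 left GLN at 0.793-fold and 0.936-fold the WT level. The difference between both UNC0642 effects, tested as an interaction, was 1.59 for MMERGLN-int (SE 0.76) and 1.30 for MMERGLN_LTR (SE 0.57) on the log2 scale. Neither passed after adjustment (adjusted p = 1 for both by edgeR's quasi-likelihood test, with and without the block), and 0 of 16245 features did. MMERGLN_LTR was the only ERV1 subfamily of 103 with an unadjusted p under 0.05 in this test, where 0.185% of all features and 0.121% of other subfamilies were higher at that level.

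RLTR1B and RLTR6B_Mm had fitted differences over the KO of 1.02 (SE 0.42, adjusted p = 1) and 1.04 (SE 0.52, adjusted p = 1) on the log2 scale in edgeR's quasi-likelihood test, with both libraries above both KO libraries. With the block the adjusted p was 0.155 and 0.187. Of the other members without overlap that were named for their size, MuRRS4-int was at 0.95, MER90 at 0.86, RLTR23 at 0.67, MMVL30-int at 0.50 and RLTR41 at 0.48. RLTR5_Mm had a larger fitted value of 1.32 (SE 0.73), but its libraries overlapped, at 3.56 and 1.65 CPM in the KO and 10.1 and 3.09 CPM with UNC0642, and leaving out 1 library moved the value between 0.23 (without UNC0642-treated Setdb1 KO replicate 1) and 1.98. More than 2-fold higher within both replicate numbers were 4 subfamilies, beside 2.47% of all features and 2.77% of other subfamilies: MER89, both GLN rows, and MER57E1. RLTR6B_Mm stood at this boundary, with log2 ratios of 0.9993 and 1.10 after a pseudocount of 0.5 CPM. MER57E1 was singled out after its values were seen and rests on 12 and 5 counts in the KO against 15 and 38.

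The group of murine leukemia virus lay at the other end, and its summed level with UNC0642 was 1.05-fold and 0.835-fold that in the KO. RLTR1 rows were 1.39-fold and 1.51-fold, VL30 rows 1.47-fold and 1.44-fold, MuRRS and LTRIS rows 1.24-fold and 1.81-fold, and MURVY rows 0.839-fold and 1.18-fold. RLTR1B-int, the second most abundant row by counts, was at 0.49 (SE 0.62) with overlapping libraries.

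**Figure D3:**
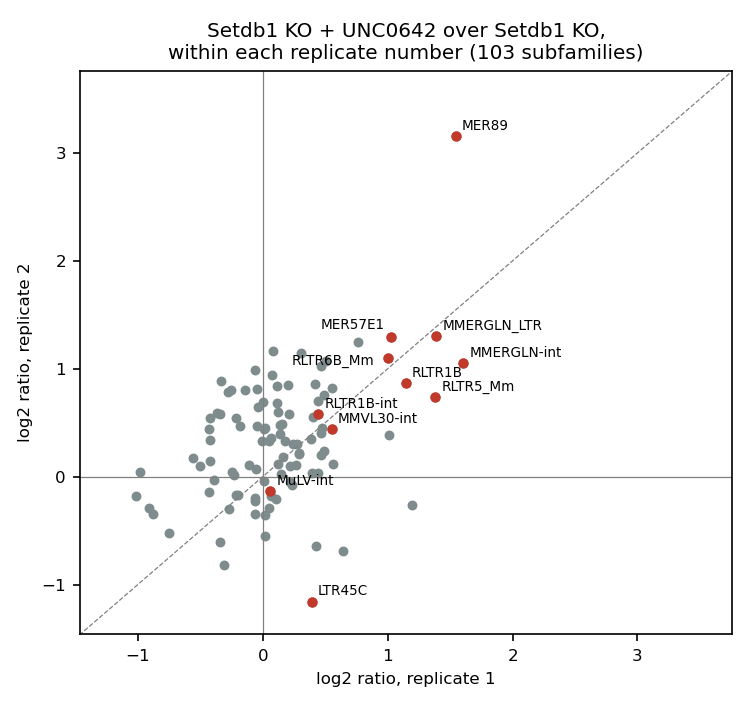
Log2 ratio of UNC0642-treated Setdb1 KO over Setdb1 KO mESCs for the 103 tested ERV1 subfamilies, replicate 1 on the x axis and replicate 2 on the y axis, computed from TMM-scaled CPM with a pseudocount of 0.5. Named subfamilies are red and the dashed line marks equal ratios. MER89, both GLN rows and MER57E1 lie above 1 on both axes, RLTR6B_Mm lies at the boundary, MuLV-int lies near 0 on both, and LTR45C lies above 0 in replicate 1 and below it in replicate 2.

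UNC0642 in cells that kept Setdb1 gave 0 calls in either direction by edgeR with or without the block, beside 0% of all features without the block and 0.166% with it. At an unadjusted p under 0.05, 3 members were higher and 0 lower, beside 2.96% of all features and 2.41% of other subfamilies that were higher. MER89 had a log2 fold change of 2.17 (SE 0.58, adjusted p = 0.574). RLTR6B_Mm, at 6.44 and 5.09 CPM in WT and 31.8 and 13.7 CPM with UNC0642, had 1.98 (SE 0.55, adjusted p = 0.609 by edgeR's quasi-likelihood test, adjusted p = 0.054 with the block). RLTR1B-int had 1.43 (SE 0.63, adjusted p = 1). Leaving out WT replicate 2 moved RLTR1B-int to 2.25 and MER89 to 2.79, and leaving out UNC0642 replicate 1 moved RLTR6B_Mm to 1.25. Without WT replicate 1, RLTR1B-int was at 0.92. DESeq2 with the replicate block called 2 subfamilies higher, MER89 and RLTR6B_Mm, beside 1.42% of all features and 1.45% of other subfamilies with an adjusted p. UNC0642-treated libraries lay above the WT libraries without overlap for 38 of 103 ERV1 subfamilies (36.9%), beside 13.7% of all features and 21.5% of other subfamilies. The median was 0.39, against 0.35 for the other subfamilies.

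The effect of UNC0642 over WT and its effect over the KO rest on different libraries and can be set side by side. Of 103 subfamilies, 62 were higher in both, 21 only in cells that kept Setdb1, 7 only in the KO and 13 in neither. Across subfamilies, which share reads and depth and are not independent replicates, Pearson's r was 0.445 and Spearman's rho 0.386. Over 2-fold in the fitted value were 11 in cells that kept Setdb1 and 9 in the KO, with 4 shared. Beside these stood 1344 and 1122 of all 16245 features, and 85 and 59 of the 829 other subfamilies. The ERV1 counts thus lie near the background. The fitted values of MER89 and RLTR6B_Mm were over 2-fold in both. Those of both GLN rows were over 2-fold in the KO and not in cells that kept Setdb1, and their difference did not pass the interaction test.

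**Figure D4:**
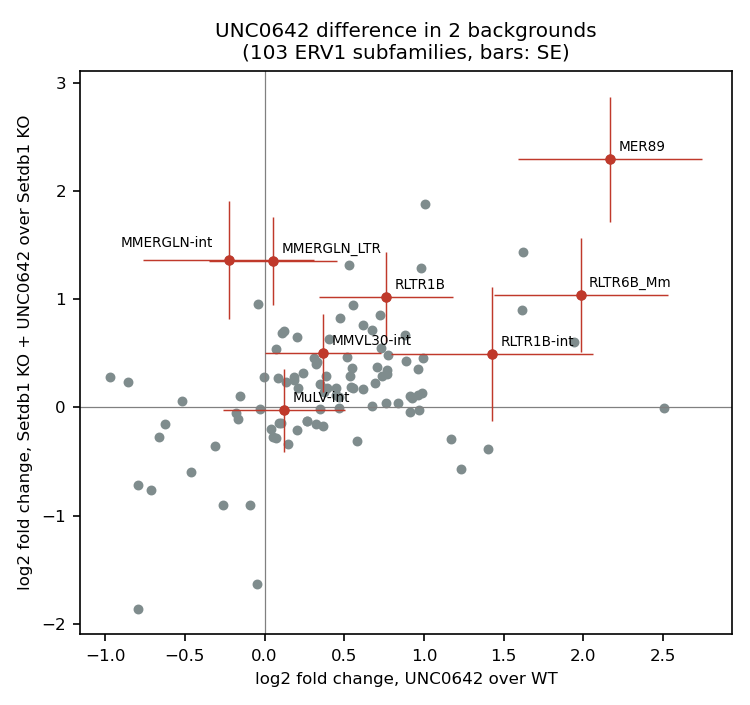
Fitted log2 fold change of UNC0642 over WT (x axis) against that of UNC0642-treated Setdb1 KO over Setdb1 KO (y axis) for the 103 tested ERV1 subfamilies. Red points are named subfamilies with SE as bars. MER89 and RLTR6B_Mm lie above 1 on both axes, while MMERGLN-int and MMERGLN_LTR lie near 0 on x and at 1.36 and 1.35 on y.

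In terms of the order of conditions, mean levels were ordered upward from WT through UNC0642 and Setdb1 KO to UNC0642-treated Setdb1 KO mESCs in 59 of the 103 tested subfamilies. The highest mean was in UNC0642-treated Setdb1 KO mESCs for 70 and in Setdb1 KO mESCs for 29. The UNC0642 mean exceeded the KO mean for 9. These orders were counted for ERV1 only. Medians over WT of the other subfamilies also rose in this order (0.35, 0.93 and 1.05 on the log2 scale), so the order is not shown to be particular to ERV1. Members with the lowest fold changes in Setdb1 KO over WT mESCs, among those with a mean of at least 1 CPM, were MER34A1 (-0.20), RLTR30D_RN (-0.18) and MER31B (-0.16), each with adjusted p = 1 by edgeR's quasi-likelihood test. MER31B was at 21.9 and 8.62 CPM in WT, 19.8 and 7.62 with UNC0642, 20.5 and 6.77 in the KO and 22.7 and 6.87 with both treatments. It was high in replicate 1 and low in replicate 2 of every condition and nearly the same between conditions within a replicate number.

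**Figure D5:**
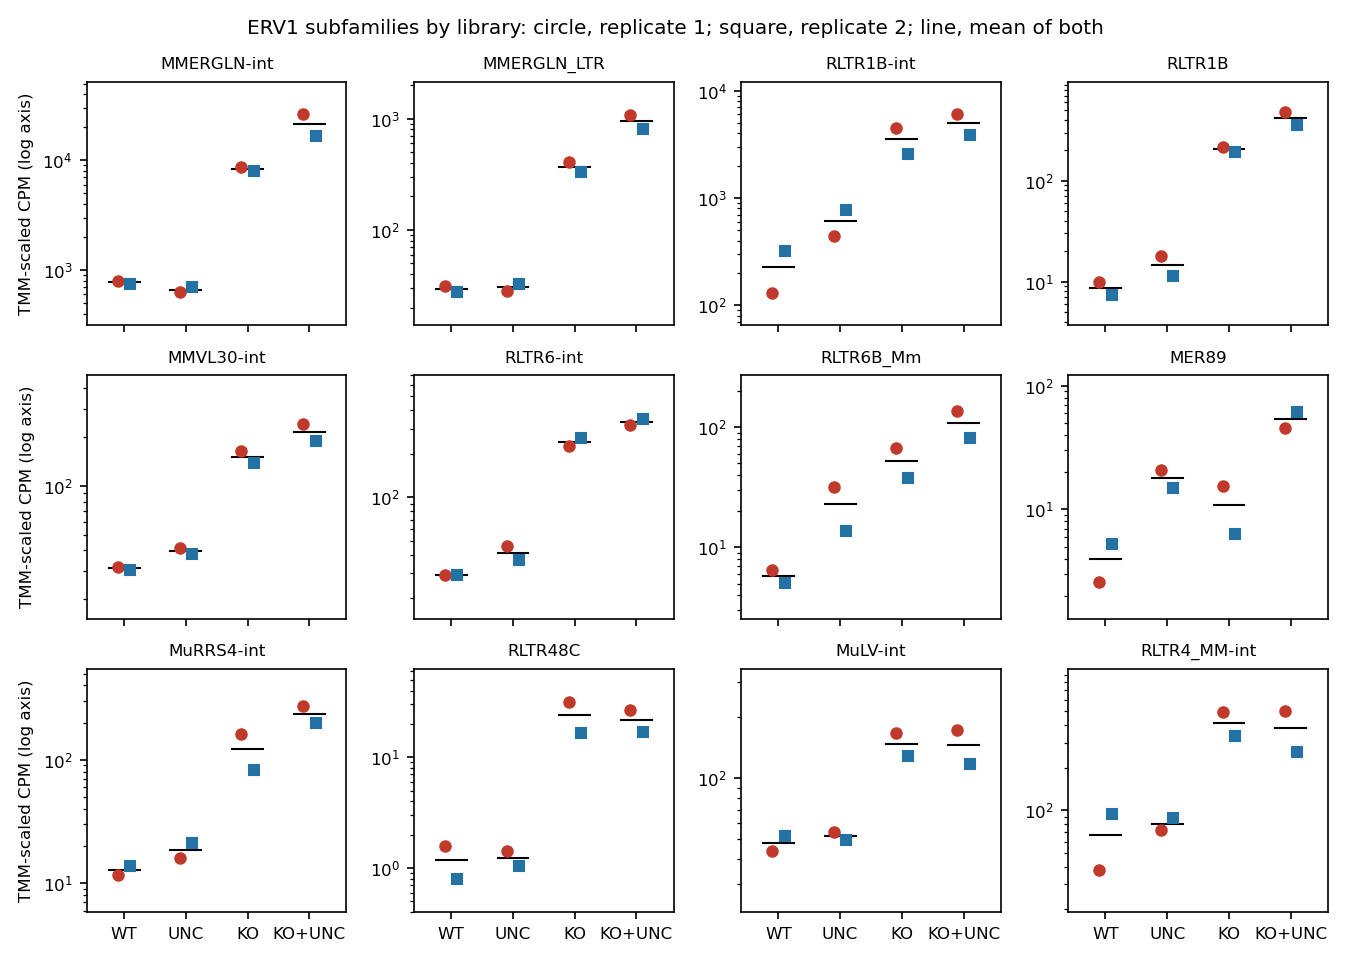
TMM-scaled CPM (y axis, log, a separate range for each panel) of 12 ERV1 subfamilies in WT, UNC0642-treated (UNC), Setdb1 KO (KO) and UNC0642-treated Setdb1 KO (KO+UNC) mESCs. Circles are replicate 1, squares replicate 2 and lines the mean of both. GLN rows are higher in the KO and higher again with both treatments, MER89 is also higher with UNC0642 alone, and the points of MuLV-int and RLTR4_MM-int overlap between both KO conditions.

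This split by replicate number was shared by many members. Taking WT, UNC0642, KO and combined treatment in turn, 73, 85, 96 and 88 of 103 ERV1 subfamilies were higher in replicate 1 than in replicate 2, with medians of 0.25, 0.48, 0.78 and 0.54 on the log2 scale. Other subfamilies moved alike (0.58 to 0.79). Gene medians were -0.13 to -0.01, but genes are 15313 of the 16245 tested rows and the scaling holds their median near 0. These medians therefore cannot show whether genes differed between replicates. Over genes alone, the replicate differences correlated between conditions with r from 0.351 to 0.706. In contrast to the split of most ERV1 members, the internal GLN row differed between replicates by 1.06-fold, 1.11-fold and 1.08-fold in WT, UNC0642 and KO. With both treatments it differed by 1.58-fold. What the numbers 1 and 2 stand for beyond biological replicates is not given in the sources used here, and their part in the results was not tested beyond the fit with the block.

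Markers of the 2-cell-like state, a rare state of mESC cultures in which Zscan4 genes are transcribed, also moved with the conditions. The 6 markers summed to 8.88 to 24.8 CPM in WT, 229 to 763 with UNC0642, 124 to 349.5 in the KO, and 618 to 1355 CPM with both treatments, and 2 of the 6 were at 0 in a WT library. MER89 followed the same order of condition means, WT, KO, UNC0642, then both treatments, and the GLN rows did not. This order was not particular to MER89, since RLTR41C and MER57E1 among others showed it too. With both treatments, replicates 1 and 2 differed in opposite directions for Zscan4c (725 and 288 CPM) and MER89 (45.8 and 60.9 CPM). In the other conditions Zscan4c and MER89 were higher in the same replicate. The part of these cells in any ERV1 result was not tested, and in bulk RNA more cells of a type and more RNA per cell cannot be told apart.

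Of 28 genes whose products silence endogenous retroviruses, chosen by role, all were tested. In edgeR's quasi-likelihood test 0 were called in Setdb1 KO over WT mESCs and 1 higher in UNC0642-treated Setdb1 KO over WT mESCs, beside 1.11% and 3.6% of all features, so neither count stands apart from the background. The 1 gene was 2810474O19Rik, listed elsewhere as Resf1, a cofactor of SETDB1 in retroviral silencing. It was at 126 and 107 CPM in WT, 209 and 142.5 with UNC0642, 1051 and 432 in Setdb1 KO and 1174 and 602 CPM with both treatments, and its log2 fold change was 2.93 (SE 0.59, adjusted p = 0.0274) with both treatments and 2.67 (adjusted p = 0.0821) in the KO. With the replicate block, 3 genes were higher in both KO conditions, 2810474O19Rik, Atf7ip and Zfp809, while Setdb1 was lower in both and Ehmt2, which encodes G9a, was lower with both treatments, beside 3.77% and 9.47% of all features higher and 0.486% and 6.44% lower by this rule in the same comparisons. Zfp809, a zinc finger protein that binds the proline tRNA primer binding site of murine leukemia virus, was at 26.2 and 25.7 CPM in WT and 108 and 50.9 CPM in the KO (log2 fold change 1.61, adjusted p = 0.257 without the block). Trim28 stood at 395 and 1301 CPM in the WT libraries and between those values in the other 6.

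The 46 subfamilies that were not tested comprised 24 MER rows, 21 LTR rows and 1 other. They held at most 41 counts over all 8 libraries and 15 in a library, 11 of them were at 0 throughout, and together they made up 0.025% of ERV1 counts. Differences in these rows were not detectable at this depth.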

How the data were processed

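RNA-seq libraries of 4 conditions (2 each) were grouped by their labels. The authors trimmed reads with Trim Galore (v0.3.7), mapped them to GRCm38 with TopHat and ran TEtranscripts, whose deposited output is an unnormalized count for each gene and transposable element subfamily, with multi-mapped reads shared among copies. The strand setting is not given in the sources used here. Sequences of ERV1 elements were not used here. Genes and subfamilies passing filterByExpr (minimum count 10, minimum total 15) were fitted together in edgeR 4.0.16 (R 4.3.3) by the quasi-likelihood method on all 8 libraries, with TMM scaling and Benjamini-Hochberg adjustment within each comparison. CPM are TMM-scaled. Fold changes used a prior count of 0.125. The floor of 3 counts covers counting error only. The fit was tested on simulated data that held no difference shared by replicate number. That test therefore does not bear on the choice between the fit with and without the block. Members, gene lists and tests were chosen with earlier results of these data known.

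The named subfamilies are those of the VL30, murine leukemia virus, GLN and RLTR1, MuRRS and LTRIS, and MURVY groups by name, those called, the 10 with the largest gain over the KO whose libraries do not overlap (mean of at least 1 CPM), the 5 with the highest mean CPM and the 3 with the lowest KO fold change.

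Replicate numbers were taken from the labels. Deviations of same-numbered libraries from their condition means correlated for all 6 pairs of conditions over all features (r 0.374 to 0.714, median 0.647). The numbers were therefore treated as pairing the libraries. The correlations alone do not establish pairing, and the sources do not state it. Values with the replicate as a block are given for named members whose call they change. Over ERV1 alone r was 0.0563 to 0.491. Alternatives were the block, DESeq2 1.42.0 on all 8 or the 4 libraries compared, RLE and total counts scaling, TMM factors from genes only, no expression filter, a prior count of 2 and leaving out each library. DESeq2 with the block was added after seeing the data.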

Additional observations from a re-analysis of the deposited data

How the results depend on the processing

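With a replicate block, the number of called ERV1 subfamilies rose from 11 to 25 in Setdb1 KO over WT mESCs and from 19 to 49 in UNC0642-treated Setdb1 KO over WT mESCs, and these lists held all 11 and all 19. The block changed neither the count of 0 for UNC0642 over WT, for UNC0642-treated Setdb1 KO over Setdb1 KO, nor for the interaction. For the same 2 comparisons with WT, DESeq2 on all 8 libraries called 22 and 35, and DESeq2 with the block called 40 and 53. DESeq2 on the 4 libraries compared called 18 in Setdb1 KO over WT mESCs. The share of all features that DESeq2 called was not computed for either KO condition over WT. These DESeq2 counts therefore cannot be read as a result about ERV1. For UNC0642-treated Setdb1 KO over Setdb1 KO mESCs, DESeq2 called 1 on 8 and 1 on 4 libraries and 5 with the block, and for UNC0642 over WT 2 with the block. The cause of these differences was not tested.

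Leaving out each library in turn gave 0 to 12 calls in Setdb1 KO over WT mESCs (0 without WT replicate 1, 0 without WT replicate 2, 3 without Setdb1 KO replicate 1) and 0 to 18 with both treatments (0 without WT replicate 1, 2 without WT replicate 2). A lone library is then assumed to vary like the other conditions. In the comparisons with 0 calls, every such setting gave 0. Over these settings MER34A1 ranged from -0.70 to 0.54 (above 0 without WT replicate 1), and MER31B from -1.17 to 0.67 (above 0 without WT replicate 1 and, at 0.42, without Setdb1 KO replicate 2), both in Setdb1 KO over WT mESCs. Leaving out a library moved the summed share between 0.162% and 0.192% (WT), 0.197% and 0.278% (UNC0642), 1.44% and 1.47% (KO), and 2.50% and 3.03% (both). As a share of transposable element counts it was 5.65%, 5.35%, 14.1% and 19.8%, where WT and UNC0642 libraries overlapped (4.37% and 6.93%, 3.61% and 7.09%). Scaling by TMM gave 1.48% in the KO (1.67% and 1.30% in its libraries) in place of 1.46%, and 3.735% and 2.41% in the libraries with both treatments. Scaling by total counts shifted the median of all features by -0.17 in UNC0642-treated Setdb1 KO over WT and by -0.10 over Setdb1 KO mESCs. With 2 libraries a condition and 11702590 counts in the shallowest, changes in rows of a few counts were not detectable.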
